A study of Canis lupus familiaris with 25 samples.

Results

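The report describes 100 genes, of 32220 Ensembl IDs counted, whose levels were lower in aspirates than in tissue of the canine prostate in non-malignant as well as in malignant samples. Levels are given as CPM, in which the read count of a gene is scaled to all gene counts of the sample other than those of KLK2. The members were chosen by these levels. The 100 IDs with the highest median CPM in non-malignant tissue and 14 IDs named in the study were left out, which removed 113 IDs because 1 was in both sets. For each of the remaining 32107 IDs, the mean log2(CPM + 1) of the aspirates was subtracted from that of the tissues within each diagnosis. The IDs were ranked by the smaller of the 2 differences and the 100 highest were kept. The contrast of tissue with aspirate was thus used for the choice, and it is described here without a test.

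RNA-Seq was performed on 25 samples from male dogs. The tissue groups were 9 non-malignant prostates (normal to hyperplastic, all dogs intact, aged 1 to 16 years) and 9 prostate carcinomas (3 dogs intact and 6 neutered, aged 8 to 12 years), collected post mortem and diagnosed by histopathology. The aspirates (US-FNA) were drawn with a fine needle under ultrasound guidance and diagnosed by cytology. They comprised 5 non-malignant samples from intact dogs aged 4 to 10 years (US-7, US-13, US-40, US-32 and US-15) and 2 malignant samples from neutered dogs aged 9 and 10 years (US-4 and US-3). RNA was isolated from tissue and from aspirates with different kits, so that the sampling route, time of sampling and extraction cannot be told apart in any comparison of tissue with aspirate. Likewise, diagnosis and neutering overlap. The dog of US-3 was euthanised and its aspiration repeated directly afterwards, so that US-3 may have been taken after death, and the labels do not say whether a malignant tissue came from the same animal. Samples were treated as independent.

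The prostate consists of secretory glands, lined by luminal and basal epithelial cells, within a stroma of smooth muscle, fibroblasts, vessels, nerves and extracellular matrix. A tissue piece keeps this architecture. A fine needle draws single cells, small cell groups, secretion and blood, and epithelial cells are generally released more easily than cells bound in matrix. The files do not pair the Ensembl IDs with gene names, and none of the IDs was found in the reference table of gene names used here. The members are therefore given by their rank in the order described above, and their cell types and functions were not tested. In bulk RNA, fewer cells of a type and less RNA per cell cannot be told apart.

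Gene counts amounted to 4258267 to 6594032 per sample in non-malignant tissue, 4455090 to 5932349 in malignant tissue, 3355926 to 4996566 in non-malignant US-FNA, and 4052454 and 3966984 in US-4 and US-3. A count of 0 in an aspirate allows a level of up to 3 counts in the library without KLK2, between 0.740 CPM in US-4 and 1.27 CPM in US-13. Intervals and floors cover counting error only. The sample labels were checked with prostate genes named in the study that are not members. KLK2, a secreted kallikrein protease of the luminal epithelium, took 15.7% to 48.2% of the counts in non-malignant tissue and 29.6% to 43.8% in non-malignant US-FNA. In the malignant samples it took at most 0.0657%. KLK4, a related protease, had 220 to 583 CPM in non-malignant tissue and 275 to 592 CPM in non-malignant US-FNA. The prostatic acid phosphatase gene ACPP had 81.2 to 501 CPM and 118 to 422 CPM in these groups. The levels of KLK4 and ACPP in non-malignant aspirates therefore overlapped with those in tissue, in the same samples in which the members were low.

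All 100 members passed the filter on low counts. Their smaller difference on the log2(CPM + 1) scale ranged from 2.32 to 4.36 with a median of 2.81. Within non-malignant samples the difference ranged from 2.32 to 8.73 (median 3.42), and within malignant samples from 2.32 to 4.80 (median 2.99). The difference was larger within non-malignant samples for 66 members and within malignant samples for 34. Among the 15183 eligible IDs past the low-count filter, the median differences were -0.09 and 0.22. The order had no gap at its end. The members ranked 99 and 100 had smaller differences of 2.327 and 2.324, and the IDs ranked 101 and 102 had 2.321 and 2.319. A smaller difference above 2 was found for 160 eligible IDs and above 1 for 580.

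In tissue the members were moderately abundant. The mean level of a member in non-malignant tissue was between 6.71 and 1170 CPM (median 33.5), and it reached 10 CPM in 90 members. In malignant tissue the mean levels were between 7.01 and 3488 CPM (median 50.1), and 97 members reached 10 CPM. In non-malignant US-FNA the median of the mean levels was 1.19 CPM and 45 members were under 1 CPM. In malignant US-FNA it was 2.79 CPM with 30 members under 1 CPM. No member lacked counts in all 7 aspirates, but 62 members had 0 counts in at least 1 aspirate, compared with 4 members in at least 1 tissue.

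The member ranked first was ENSCAFG00000015337. In non-malignant tissue it had 25.9 to 226 CPM (median 45.1) and in malignant tissue 63.6 to 456 CPM (median 97.3). It had 2.96 CPM in US-13, 2.63 CPM in US-7, 2.27 CPM in US-15, 0.737 CPM in US-32 and no count in US-40. The malignant aspirates had 12.8 CPM in US-4 and 1.26 CPM in US-3. All aspirates were thus below all tissues, and US-4 was the highest of them. The member ranked second was ENSCAFG00000001585, with 18.5 to 361 CPM (median 38.2) in non-malignant and 10.0 to 1678 CPM (median 32.6) in malignant tissue. It was absent from the counts of US-13 and US-15, had 1.97 CPM in US-7, 0.737 CPM in US-32 and 6.13 CPM in US-40, and 1.97 and 1.01 CPM in US-4 and US-3. For this member US-40, and neither US-13 nor US-4, was the highest aspirate. With 2 to 18 counts behind each of its non-zero values in the aspirates, their order is imprecise.

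**Figure D1:**
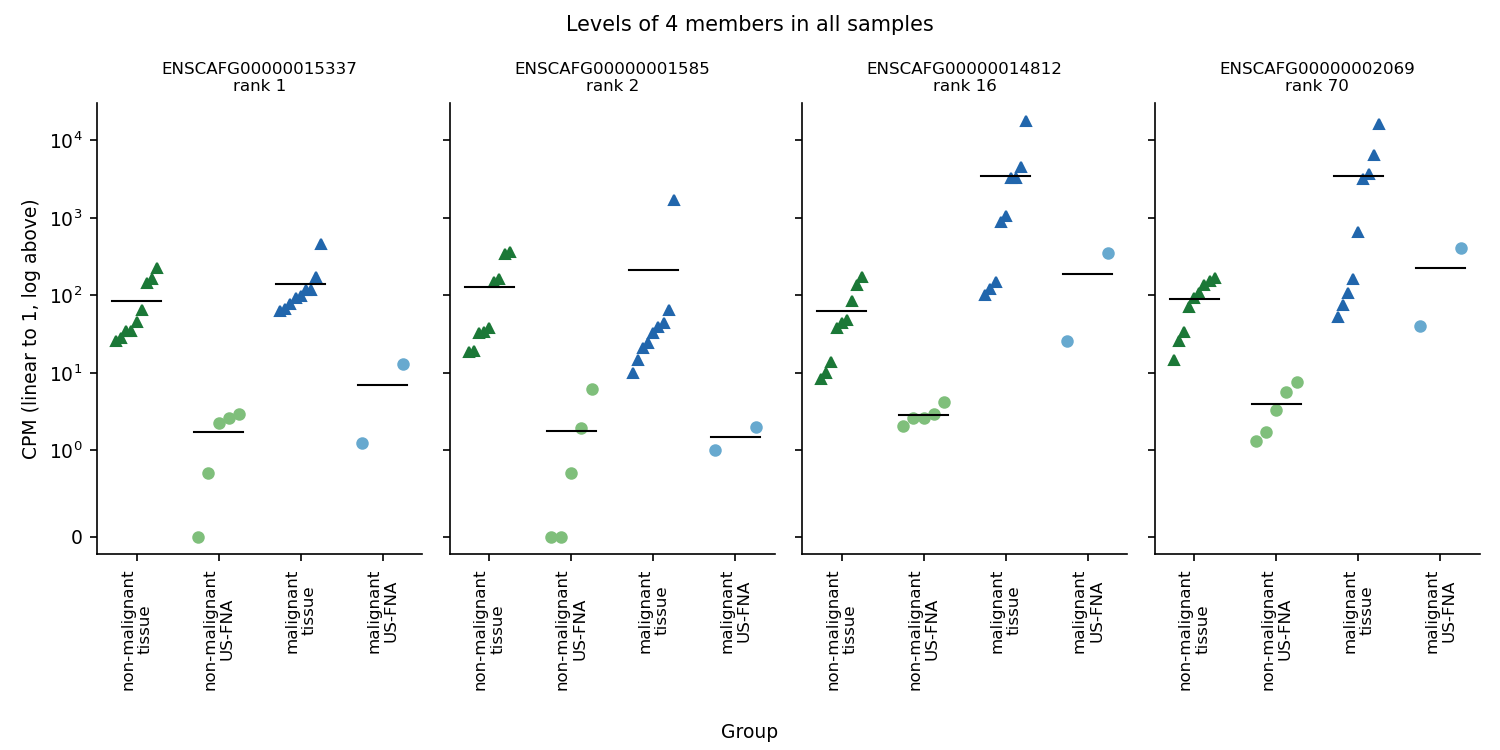
Levels in CPM of 4 members in all 25 samples, on an axis that is linear up to 1 CPM and logarithmic above it. Triangles are tissues, circles are US-FNA samples and horizontal lines are group means. The members ranked 1 and 2 were chosen by their rank, and those ranked 16 and 70 by the largest rise in malignant tissue, where their highest levels were 18016 and 16509 CPM, both in PT-5.

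The counts of all members were summed for each sample as a share of the gene counts without KLK2. The share ranged from 0.211% in PT-12 to 2.29% in PT-10 among non-malignant tissues, with a median of 0.644%. Among malignant tissues it ranged from 0.401% in PT-7 to 5.87% in PT-5, with a median of 1.72%. Non-malignant aspirates had far smaller shares, namely 0.0378% in US-13 (95% Wilson interval 0.0354% to 0.0403%), 0.0204% in US-15 (0.0187% to 0.0222%), 0.0150% in US-32 (0.0137% to 0.0166%), 0.0148% in US-7 (0.0135% to 0.0162%) and 0.0114% in US-40 (0.0103% to 0.0127%). US-4 had a share of 0.207% (0.202% to 0.211%) and US-3 of 0.0489% (0.0467% to 0.0511%). The intervals of US-7 and US-32 overlapped, whereas US-13 was above the other non-malignant aspirates and US-4 above US-3 by more than the counting error. The share of US-4 was close to that of the lowest non-malignant tissue, although below that of every malignant tissue.

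**Figure D2:**
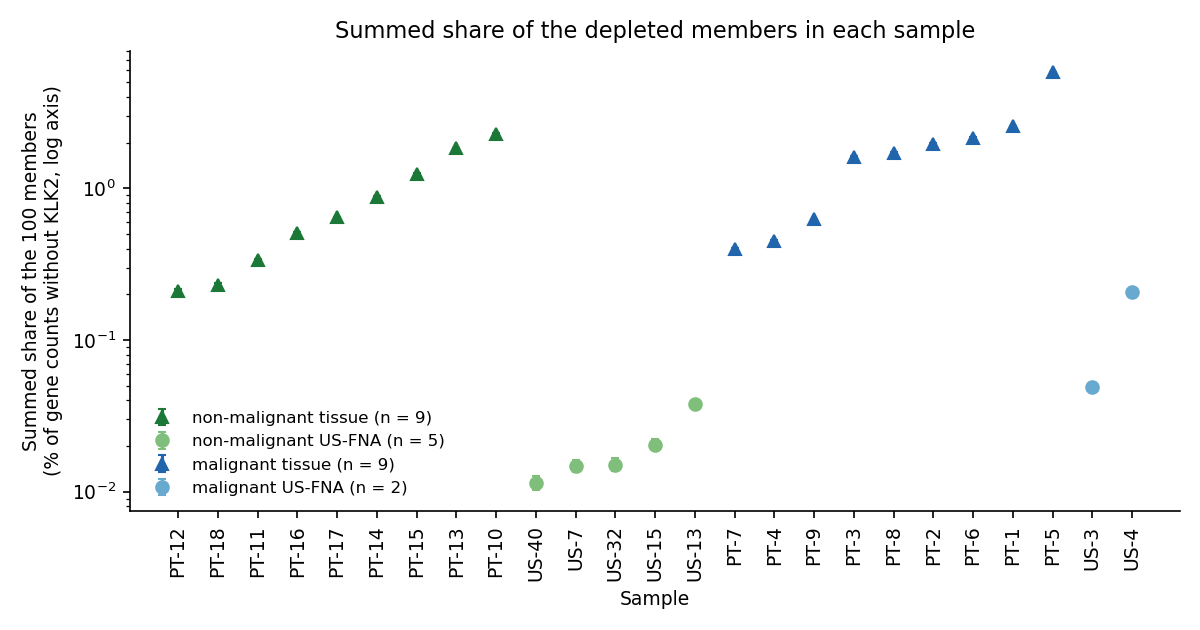
Summed share of the 100 members in each sample, in percent of the gene counts without KLK2, on a logarithmic axis. Points are samples sorted within their group, and bars are 95% Wilson intervals. Non-malignant aspirates reached at most 0.0378%, compared with at least 0.211% in non-malignant tissue.

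A single gene did not make up these sums. The most abundant member of a sample held 8.18% of the member counts in US-15 and 20.3% in US-32, the extremes among the aspirates. In tissue the corresponding shares ranged from 5.82% in PT-17 to 30.7% in PT-5. Without the most abundant member of each sample, US-13 kept a share of 0.0345% and US-40 of 0.00957%, and US-4 and US-3 kept 0.166% and 0.0442%.

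The loss was present in every aspirate but was not uniform over the 7. For each member, the level in an aspirate was compared with the mean of the tissues of the same diagnosis. All 100 members were lower in each aspirate, which the choice of the members favours. The median difference was -3.00 in US-13, -3.69 in US-7, -3.38 in US-15, -3.64 in US-32 and -3.89 in US-40. In the malignant aspirates it was -2.54 in US-4 and -3.54 in US-3. Over all eligible IDs past the filter the median difference lay between -0.34 (US-3) and 0.20 (US-40). By the median, the members were thus reduced most in US-40 and least in US-4, followed by US-13, and the medians spanned 1.35 on the log2 scale. Member by member, the smallest loss was in US-4 for 45 members and in US-13 for 27. The largest loss was tied where several aspirates had 0 counts, so it was read within each diagnosis with ties left out. Among the non-malignant aspirates it was in US-40 for 23 members, in US-32 for 17, in US-7 for 15, in US-15 for 6 and in US-13 for 0. Between the malignant aspirates it was in US-3 for 80 members and in US-4 for 18. With KLK2 in the library size, US-40 and US-3 had the same median of -3.54, whereas with TMM library sizes it was -3.79 in US-40 and -3.23 in US-3.

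**Figure D3:**
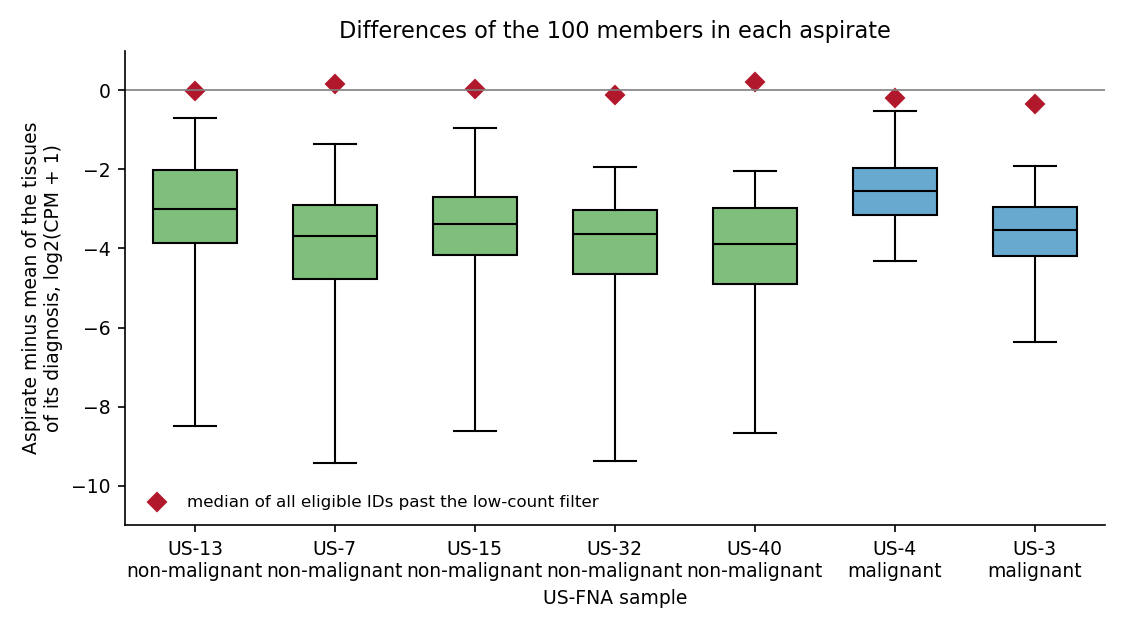
Difference of each member's log2(CPM + 1) in an aspirate from the mean of the tissues of its diagnosis. Boxes show quartiles and medians of the 100 members, whiskers reach the lowest and highest member, and diamonds are the medians of all eligible IDs past the low-count filter. The smallest reduction was 0.52 in US-4 (difference -0.52), and no member reached 0 in any aspirate.

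On the linear scale the median member kept 7.15% of its mean tissue CPM in US-4, 5.66% in US-13, 3.01% in US-15 and 2.17% in US-3, and at most 1.18% in US-7, US-32 and US-40. In these last 3 aspirates 60, 64 and 69 members had under 3 counts, and their order by single members is imprecise. The best preserved member kept 16.2% in US-40, 17.6% in US-3, 19.6% in US-32, 22.1% in US-7, 39.5% in US-4, 40.8% in US-13 and 41.6% in US-15. A similar but not identical order was seen for members without any count, of which there were 5 in US-4, 13 in US-13, 18 each in US-15 and US-3, 33 in US-32, 36 in US-40 and 39 in US-7. These numbers depend on depth as well as level, and US-13, with few zeros, had the lowest gene count of all samples. The shares kept are relative to a mean, which single tissues with high levels can raise. In malignant tissue the member ranked 70 had a mean of 3430 CPM and a median of 648 CPM. Beside the median its share kept in US-4 would be larger.

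The extremes were the same aspirates in abundant and in less abundant members. In the 41 members with a mean of at least 50 CPM over all samples, the median difference was -4.96 in US-40, -4.77 in US-7, -4.45 in US-32, -4.11 in US-15, -4.06 in US-3, -3.44 in US-13 and -2.30 in US-4. In the 53 members with 10 to 50 CPM it was -3.64 in US-40 and -3.59 in US-7, compared with -2.70 in US-13 and -2.63 in US-4. The remaining 6 members were under 10 CPM, where the difference is limited by the pseudocount, and their medians lay between -3.02 (US-40) and -2.24 (US-4).

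Each aspirate was then set against the single tissues of its diagnosis. In US-13, 82 members were below every non-malignant tissue, as were 15% of the eligible IDs past the filter. This number was 95 in US-7 (10.5% of the eligible IDs), 91 in US-15 (11.2%), 95 in US-32 (18.2%) and 97 in US-40 (12.5%). In US-3, 87 members were below every malignant tissue (21% of the eligible IDs), and in US-4 only 52 were (16.1%). In all 5 non-malignant aspirates together, 74 members were below every non-malignant tissue (3.09% of the eligible IDs). In both malignant aspirates, 48 were below every malignant tissue (6.03%), and this number was 87 without US-4. For 35 members both statements held (0.626%), and for 24 members all 7 aspirates were below all 18 tissues (0.263%). These counts use the contrast by which the members were chosen and are given as a description.

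To read an aspirate that had no part in the choice, the 100 IDs were selected anew without it. Of the IDs selected without US-13, 98 were lower in US-13 than in the mean of the non-malignant tissues. In the same selection, 78 IDs were below every non-malignant tissue in US-13 (15% of the eligible IDs), and the median difference was -3.00. The corresponding medians were -3.69 in US-7, -3.35 in US-15, -3.64 in US-32 and -3.89 in US-40. In these 4 aspirates, 88 to 96 of the IDs were below every non-malignant tissue (10.5% to 18.2% of the eligible IDs). These selections shared 92 to 95 IDs with the 100 members. The malignant aspirates depended more on their own part in the choice. Selected without US-4, the list shared 75 IDs with the members and its median difference in US-4 was -2.06. Of the IDs on this list, 38 were below every malignant tissue in US-4 (16.1% of the eligible IDs). Selected without US-3, the list shared 65 IDs with the members and its median difference in US-3 was -2.92. Of the IDs on that list, 67 were below every malignant tissue in US-3 (21.0% of the eligible IDs). US-4 thus remained the aspirate with the smallest reduction, but US-3 (-2.92) then came before US-13 (-3.00). The tissues were the same in all selections.

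The difference between aspirates of 1 diagnosis had no part in the rule and was compared directly. In US-4, 80 of the 100 members were higher than in US-3, compared with 52.4% of the eligible IDs, and the median difference between them was 0.98 for the members and 0.09 for all eligible IDs. In US-13, 55 members were higher than in each of the other 4 non-malignant aspirates, compared with 18.3% of the eligible IDs. The median difference of US-13 from the mean of these 4 was 0.70 for the members and -0.10 for all eligible IDs. Both statements held for 46 members (8.71% of the eligible IDs) and neither for 11 (38.0%). With 1 sample on a side these differences have no replicate check.

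Individual members varied over the aspirates more than the medians show. The difference from tissue spanned 0.47 to 8.42 over the 7 aspirates (median 2.53, compared with 1.81 over all eligible IDs), and it spanned more than 2 for 71 members and for 42.3% of all eligible IDs. The members with the widest span were ranked 85, 82 and 45. Their differences were between -9.43 and -6.12 in the non-malignant aspirates, but -0.95, -1.22 and -1.68 in US-4 and -3.90, -3.65 and -4.11 in US-3. Part of this span lies in the tissue reference, since these members had lower means in malignant than in non-malignant tissue. The member ranked 82 had 1.51 CPM in US-3, within the 0 to 8.89 CPM of the non-malignant aspirates. Within the 5 non-malignant aspirates, the member ranked 48 had the widest range among members with at least 10 CPM in non-malignant tissue, from 0.378 CPM to 20.7 CPM with the highest level in US-13, after 36.5 to 303 CPM in non-malignant tissue. The member ranked 14 reached 16.7 CPM in US-15 and 0.369 CPM in the lowest aspirate. The narrowest ranges among these members were those of the members ranked 46, 55 and 73, which had at most 0.378 CPM in any non-malignant aspirate, under the floor of a count of 0.

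Blood carry-over, depth and RNA integrity were read beside the loss. The 5 globin genes took 0.0245% of all gene counts in US-40, 0.351% in US-32, 0.460% in US-15, 0.701% in US-7, 1.99% in US-13, 2.98% in US-4 and 3.98% in US-3. All tissues were at or below 0.0142%. Unlike CPM, these shares and the coefficients below keep KLK2 in the total. KLK2 took 29.6% to 43.8% of the counts in non-malignant aspirates and at most 0.000479% in malignant aspirates. Without KLK2 in the total, the globin shares of the non-malignant aspirates would be larger. Blood was also scored by eye in the study, with US-3, US-15 and US-40 in its strongest class and US-4 and US-13 in its weak class, so that visible blood and globin share ordered the aspirates differently. The study also reported the RNA integrity number of these aspirates, which was not available for US-3. It was lowest in US-13 and highest in US-40, followed by US-4. US-40, with the lowest globin share, had the largest median reduction, and US-3, with the highest, did not have the smallest. Over the 7 aspirates, the members' median difference and the log2 globin share had a Pearson's r of 0.664 and a Spearman's rho of 0.643. Without US-40 and US-3, the samples farthest from the median globin share, r was 0.900 over 5 samples. With the gene count of the sample including KLK2, r was -0.621, but with the count without KLK2, on which CPM rests, it was 0.315. Diagnosis differs among these samples, and within the 5 non-malignant aspirates r was 0.809 with the globin share, -0.835 with the gene count and -0.908 with the count without KLK2. These coefficients are a description of few samples, and the part of blood, depth or RNA integrity in the loss was not tested. When the globin genes were also left out of the library size, the medians were between -3.89 and -2.51. The share of reads assigned to no gene was 70.3% in US-13, compared with 61.9% to 66.9% in the other aspirates and 58.8% to 68.8% in tissue.

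The members also varied widely among tissues. The range of a member's log2(CPM + 1) over the 9 non-malignant tissues had a median of 3.64, compared with 1.62 for all eligible IDs, and over the 9 malignant tissues it had a median of 4.99, compared with 1.98. In non-malignant tissue the members moved together. The median Pearson's r between 2 members over the 9 samples was 0.705 (0.136 over all pairs of eligible IDs), and 71.5% of the pairs had an r above 0.5 (19.3% over all pairs). In malignant tissue the median r was 0.278 (0.0458 over all pairs) and 33.1% of the pairs were above 0.5 (15.2%). Over the 5 non-malignant aspirates it was 0.301 for the 98 members that varied there (0.0796 over all pairs), from mostly single-digit counts. All pairs of a group share the same libraries, and with effective library sizes by the TMM method the median r was 0.654 in non-malignant and 0.278 in malignant tissue.

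**Figure D4:**
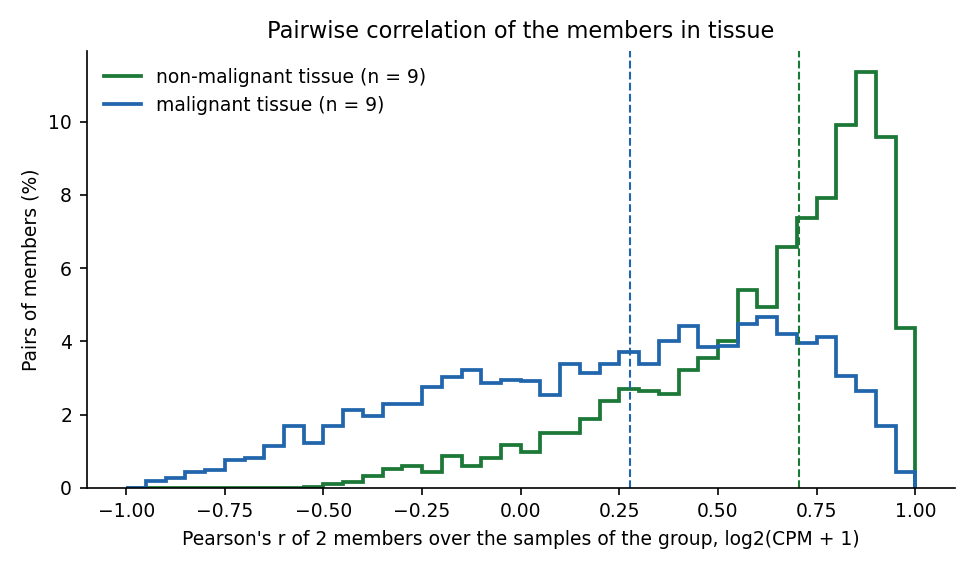
Distribution of Pearson's r between pairs of the 100 members, computed on log2(CPM + 1) over 9 non-malignant or 9 malignant tissues, as percent of the pairs. Dashed lines are the medians, 0.705 in non-malignant and 0.278 in malignant tissue.

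The common movement in non-malignant tissue set samples apart. PT-10 (a dog aged 16 years), PT-13 (5 years) and PT-15 (6 years) had summed shares of 2.29%, 1.84% and 1.25%. PT-12 (9 years), PT-18 (1 year) and PT-11 (5 years) had 0.211%, 0.231% and 0.335%. The highest share was 10.9 times the lowest, and 10.3 times without the most abundant member of each sample. KLK2 took 23.6%, 18.5% and 39.3% of the counts in the former samples and 48.2%, 41.8% and 32.8% in the latter. The shares of KLK2 and of the members did not follow a single order. PT-14 had a member share of 0.875% with 40.2% KLK2, and PT-17, with the lowest KLK2 share of the group (15.7%), had a member share of 0.644%. The part of the tissue composition in this spread was not tested.

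The comparison of malignant with non-malignant samples within 1 sample type was not used by the rule. In tissue, 35 members were called higher in malignant samples at a false discovery rate (FDR) under 0.05, and 32.8% of all genes tested were. A further 13 members were called lower (24.9% of all genes), and 52 were not called. Their log2 fold changes ranged from -3.45 to 5.75 with a median of 0.69, compared with 0.17 over the 15293 genes tested. DESeq2, the tool of the study, called 33 members higher (32.2% of the same genes) and 14 lower (25.4%). At the stricter FDR under 0.00001, edgeR called 0 members (3.35% of all genes higher and 3.04% lower), and DESeq2 called 10 members higher (12.9% of the same genes) and 0 lower (9.96%). By edgeR, 52 members and 62.6% of all genes had an unadjusted p under 0.05.

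ENSCAFG00000014812, ranked 16, and ENSCAFG00000002069, ranked 70, had the largest rise. The former had 8.34 to 173 CPM (median 43.7) in non-malignant tissue and 102 to 18016 CPM (median 1061) in malignant tissue, with the highest level in PT-5. Its log2 fold change was 5.75 (SE 1.03, FDR 0.000129, edgeR quasi-likelihood test with Benjamini-Hochberg adjustment), and the groups overlapped. In the aspirates it had 2.04 to 4.23 CPM in the 5 non-malignant samples, 347 CPM in US-4 and 25.5 CPM in US-3. The latter gene had 14.9 to 169 CPM (median 93.3) in non-malignant and 52.3 to 16509 CPM (median 648) in malignant tissue, with a log2 fold change of 5.19 (SE 1.04, edgeR FDR 0.000367). In the non-malignant aspirates it had 1.31 to 7.62 CPM, in US-4 407 CPM and in US-3 39.8 CPM. For both genes the malignant aspirates were above all non-malignant aspirates. Without PT-5 their log2 fold changes in tissue were 4.58 and 4.13.

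The members ranked 1 and 2 were not called in tissue. ENSCAFG00000015337 had a log2 fold change of 0.79 (SE 0.47, edgeR FDR 0.154). That of ENSCAFG00000001585 was 0.43 (SE 0.93, edgeR FDR 0.707), and it turned to -1.97 with DESeq2 (FDR 0.00146). Its level in PT-1, 1678 CPM, stood far above the other malignant tissues.

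The members called lower in malignant tissue were led by those ranked 82, 59 and 7. The member ranked 82 had a mean of 1124 ± 1204 CPM (SD, n = 9) in non-malignant and 103 ± 156 CPM (SD, n = 9) in malignant tissue, with a log2 fold change of -3.45 (SE 0.99, edgeR FDR 0.00592). The member ranked 59 fell from 172 ± 244 CPM to 21.3 ± 33.7 CPM (SD, n = 9 each; log2 fold change -3.08, edgeR FDR 0.00524). The member ranked 7 fell from 417 ± 435 CPM to 60.3 ± 76.8 CPM (SD, n = 9 each; log2 fold change -2.86, edgeR FDR 0.00788). The SD was close to or above the mean in these groups, and the ranges overlapped. Of the 6 members with the highest mean CPM over all tissues, 4 (ranked 85, 80, 82 and 45) were called lower in malignant tissue and 2 (ranked 16 and 70) higher.

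In aspirates, 26 members were called higher in malignant samples (16.5% of the 15232 genes tested) and 0 lower (12%), by edgeR at an FDR under 0.05. An unadjusted p under 0.05 was found for 36 members and for 41.6% of all genes, and DESeq2 called 29 members higher (18.1% of the same genes) and 1 lower (14.1%). The median log2 fold change of the members was 1.89, compared with 0.13 over all genes tested, and it was the same with the 4 members that had 0 counts in a whole group set to their bound against 3 counts over that group. The members were chosen for low levels in aspirates, and 45 of them had a mean under 1 CPM in the non-malignant aspirates, so that few could be called lower. The low-count filter was set by all 4 groups, so that members could pass it through their counts in tissue. The split of higher and lower calls and the median log2 fold change are therefore not comparable with those of all genes. The comparison rests on 2 malignant samples, both from neutered dogs, with globin shares of 2.98% and 3.98%. The non-malignant aspirates were all from intact dogs and had globin shares of 0.0245% to 1.99%. All these shares keep KLK2 in the total. The part of neutering or blood in these calls was not tested. Without US-4 the calls were 12 members higher (15.5% of all genes) and 1 lower (11.3%). Without US-7 they were 15 higher (11.2%), without US-32 17 higher (11.3%), and without US-40 1 member was called lower (11.1%). The fit without US-4 assumes that the single remaining malignant aspirate varies like the non-malignant ones.

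**Figure D5:**
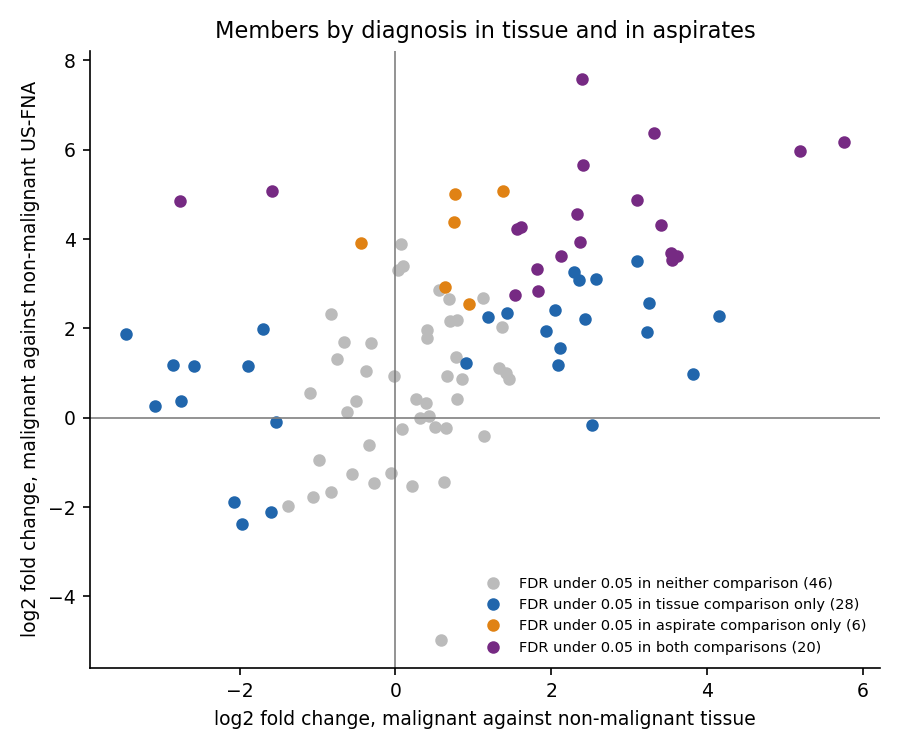
Log2 fold change of each of the 100 members between malignant and non-malignant tissue (horizontal axis) and between malignant and non-malignant US-FNA (vertical axis), by edgeR. Colours mark the comparisons in which a member had an FDR under 0.05, and 18 of the members with both calls were higher in malignant samples in tissue and aspirates.

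The 2 comparisons share no sample. Of the 26 members called higher in malignant aspirates, 18 were also called higher in malignant tissue, 6 were not called in tissue and 2 were called lower in malignant tissue. These 18 made up 69.2% of the members called higher in aspirates (83.6% over all genes) and 51.4% of those called higher in tissue (42.3% over all genes). The 2 members with opposite calls were those ranked 85 and 45. The former had a log2 fold change of -2.76 (SE 0.91, edgeR FDR 0.0137) in tissue and 4.86 (SE 1.04, edgeR FDR 0.0100) in aspirates. Its mean was 1170 ± 1291 CPM (SD, n = 9) in non-malignant and 184 ± 252 CPM (SD, n = 9) in malignant tissue, but at most 1.36 CPM in any non-malignant aspirate, compared with 32.1 CPM in US-4 and 3.28 CPM in US-3. The member ranked 45 had a log2 fold change of -1.58 (SE 0.60, edgeR FDR 0.0292) in tissue and 5.07 (SE 0.74, edgeR FDR 0.00217) in aspirates. Its level was 665 ± 622 CPM (SD, n = 9) in non-malignant and 235 ± 187 CPM (SD, n = 9) in malignant tissue, 0.341 to 1.69 CPM in the non-malignant aspirates, 50.6 CPM in US-4 and 8.57 CPM in US-3. Both were thus higher in the tissue group with less of them left in its aspirates. Whether the effects of diagnosis differ between tissue and aspirates was not tested.

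Since malignant tissue came mostly from neutered dogs, the members were also compared within diagnosis and within intact dogs. Between the 6 neutered and 3 intact dogs with malignant tissue, edgeR called 0 members higher and 0 lower at an FDR under 0.05, and 0% of the 15249 genes tested in either direction. An unadjusted p under 0.05 was found for 7 members and for 5.31% of all genes, and DESeq2 also called 0 members (0.0787% of the same genes higher and 0.0131% lower). The median log2 fold change of the members was 0.52, compared with -0.06 over all genes, and an FDR above the threshold does not show that the levels were alike. Between malignant tissue of the 3 intact dogs and non-malignant tissue, 24 members were called higher (22.4% of the 15283 genes tested) and 5 lower (13.8%), with a median log2 fold change of 0.68, compared with 0.19. Without PT-1 the calls were 12 members higher (16.0% of all genes) and 3 lower (9.55%). ENSCAFG00000014812 and ENSCAFG00000002069 were also higher in the intact dogs, by 4.35 (SE 0.78, edgeR FDR 0.00102) and 4.34 (SE 0.86, edgeR FDR 0.00190) on the log2 scale.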

How the data were processed

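RNA-Seq counts of 25 samples (18 tissues, 7 aspirates) were used as the authors deposited them, 1 file per sample with 32220 Ensembl IDs (CanFam3.1, release 85) and 5 tallies of unassigned reads. Per the labels, the authors converted the reads with bcl2fastq 2.15.0.4, trimmed them with Trimmomatic 0.32, aligned them with TopHat2 and counted them with HTSeq. Whether the libraries kept strand is not given, so that a gene and its antisense partner cannot be told apart. The tallies were left out of library sizes. Reads assigned to no gene made up 58.8% to 70.3% of all reads in a file.

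CPM and log2(CPM + 1) were computed here from the deposited counts, with the library size without KLK2. Depth was 3355926 to 6594032 gene counts per sample. Wilson 95% intervals and a floor of 3 counts cover counting error only. Groups followed the labels for diagnosis and sample type. Malignant and non-malignant samples were compared within tissue and within aspirates, neutered with intact dogs within malignant tissue, and malignant tissue of intact dogs with non-malignant tissue. The study tested with DESeq2 at an FDR under 0.00001. Here each comparison used edgeR 4.0.16 quasi-likelihood tests in R 4.3.3 with TMM, the low-count filter filterByExpr set by the 4 groups (min.count 10 and min.total.count 15, which kept 15296 genes) and Benjamini-Hochberg adjustment over all genes tested. The SE was taken as the absolute log2 fold change over the root of F. Genes were called at an FDR under 0.05. Python 3.11.15, NumPy 2.4.6, pandas 2.3.3, SciPy 1.17.1 and matplotlib 3.10.9 were used for the rest.

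Alternatives were other library sizes, pseudocounts, filters, group medians, 50 or 200 IDs, DESeq2 1.42.0 with its Wald test and DESeq2 size factors. A single fit of all groups and an FDR under 0.00001 with either tool were also used. Each aspirate and each intact dog with malignant tissue was left out in turn, and of the other tissues only PT-5. Members and lists were chosen with earlier results of these data known. The members described were those highest in the order, at its end, with the highest mean in tissue, with the largest called changes in malignant tissue, and with the widest or narrowest range over the non-malignant aspirates at a mean of at least 10 CPM in non-malignant tissue. The spans over all 7 aspirates were added after their values were seen. At most 4 IDs were to be printed where no names were available, and which 4 was decided after their values were seen. The reference table held a name for 0 of the IDs, so cell type marker lists could not be used. Permutation tests planned for the correlations over the 7 aspirates are not reported, since the loss is a score over members chosen on the same samples.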

Additional observations from a re-analysis of the deposited data

Results flagged for a closer look

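In 22 groups of samples the highest and the lowest value were compared with the others, and 3 values were set apart from the rest of their group by Dixon's ratio. Chance sets apart about 1 in 20 such groups if their values are normally distributed and not tied. Numbers of members at 0 are tied and CPM can be skewed, so this rate is only a rough guide here. In PT-1, 2 members had 0 counts, compared with 0 or 1 in the other malignant tissues. ENSCAFG00000015337 had 455.6 CPM in PT-3, with 63.6 CPM as the lowest and 97.3 CPM as the median value of the malignant tissues. ENSCAFG00000001585 had 1678 CPM in PT-1, with a median of 32.6 CPM in malignant tissue. The causes were not tested.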

How the results depend on the processing

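Of the values under alternative settings, 175 stayed within the tolerance, 29 moved and 2 reversed. The tolerance was 1.5 times for counts, 1 SD over aspirates for median differences (over the 5 or 2 of a diagnosis, or all 7 for their range), 0.1 for correlations, and direction and side of the threshold for fold changes. It is wide for the 2 malignant aspirates, and counts within it include 18 and 19 members called higher in malignant aspirates, from 26. All 100 members were lower in every aspirate with each of the 4 library sizes. The lists under other processing shared 70 to 100 IDs with the members, and those without an aspirate 65 to 95. The mean over aspirates of the members' median difference was -3.52 in non-malignant and -3.04 in malignant samples. In non-malignant samples it was -3.90 with a pseudocount of 0.5 CPM, -2.46 with 5 CPM, -3.99 with 50 IDs and -2.94 with 200 IDs. In malignant samples it was -2.25 with a pseudocount of 5 CPM. A larger pseudocount or a longer list makes the difference smaller by construction. With each aspirate left out in turn when the members were chosen, it ranged from -3.81 to -3.13 in non-malignant samples. The number of members below every malignant tissue in all malignant aspirates ranged from 52 to 87, from 48 with both.

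At an FDR under 0.00001, which is stricter, edgeR called 0 members in malignant tissue, from 35 higher and 13 lower. Of all genes, 3.35% were called higher and 3.04% lower there. In malignant aspirates it called 0 members, from 26 higher, and 0% of all genes in either direction. In malignant tissue of intact dogs it called 0 members, from 24 higher and 5 lower, and likewise 0% of all genes. Where no gene was called, the result is not particular to the members. DESeq2 at that threshold called 10 higher (12.9% of the genes past the filter) and 0 lower (9.96%) in malignant tissue, 7 higher (3.27%) and 0 lower (3.44%) in malignant aspirates, and 1 higher (3.86%) and 0 lower (3.25%) in malignant tissue of intact dogs. At an FDR under 0.05 DESeq2 called 1 member lower in malignant aspirates, compared with 0. With each non-malignant aspirate left out, 15 to 29 members were called higher in malignant aspirates (11.2% to 14.3% of all genes). In these fits 0 to 1 were called lower (8.76% to 11.1%). The fit without US-4 is described above. With each intact dog with malignant tissue left out, 12 to 30 members were called higher (15.98% to 22.03% of all genes). In these fits, which have fewer samples, 3 to 6 were called lower (9.55% to 15.73%). The log2 fold change of ENSCAFG00000001585 in malignant tissue reversed from 0.43 to -1.97 with DESeq2, and the cause was not tested. The correlation of the members' median difference, which is more negative with a larger loss, was 0.900 with the log2 globin share without US-40 and US-3, and -0.519 with the gene count without US-13 and US-7. The correlation with the gene count reversed from -0.621 to 0.315 when KLK2 was left out of it, and the cause was not tested. Counts under 3 were found for 10 to 69 members per aspirate, in which levels are imprecise. No paired analysis was possible because the labels give no pairing of dogs between the groups compared.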
